A study of Canis lupus with 23 samples.

Results

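The Notch genes followed here were 4 receptors (NOTCH1, NOTCH2, NOTCH3 and NOTCH4), 4 ligands (JAG1, JAG2, DLL1 and DLL4) and 2 target genes (HES1 and HEY1), chosen by gene symbol. The Affymetrix Canine Genome 2.0 array measured 15115 genes with a symbol of their own, and its annotation gave a probeset under the symbol of 8 of the 10. DLL1 and HES1 had none, and their values were not analysed here. RNA came from tumor biopsies of 23 dogs, 1 array per dog. The tumors were 7 lymphomas, 5 melanomas, 4 sarcomas (2 titled STS, or soft tissue sarcoma, and 2 titled Sarcoma, joined here), 3 cases of TCC (transitional cell carcinoma, which arises from the urothelium of the bladder), and single cases of nasal tumor, HSA (hemangiosarcoma, a tumor of vessel-lining cells), histiocytic sarcoma and hepatocellular carcinoma (HCC). The dogs were pets with cancers that arose naturally and had not been treated before, and the labels give the diagnosis only, without age, sex or breed. The methods opened enrolment to named breeds for lymphoma (golden retrievers) and TCC (Scottish terriers), beside a cohort open to any breed. The paper also reports a melanoma cohort, at first for American cocker spaniels and later open to all breeds. Without breed labels, breed and tumor type cannot be told apart here. From a cursory evaluation, the paper reports no influence of breed on the clustering of expression. No normal tissue was analysed here, so every difference below is between tumor types.

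Notch is a signalling pathway between touching cells. A ligand of the Jagged or Delta-like family on the sending cell binds a Notch receptor on the receiving cell, the receptor is cut by an ADAM protease and then by gamma-secretase, and its inner part moves to the nucleus, where it joins the DNA-binding protein RBPJ and switches on repressor genes of the HES and HEY families. The same pathway is used in many tissues. It directs the T cell fate and the marginal zone B cell fate, orders the sprouting of vessels through DLL4 and JAG1, and keeps vascular smooth muscle cells through NOTCH3.

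Values are MAS5 signals, a linear intensity for each probeset that was scaled array by array before deposit, and they were used as log2(signal + 16) averaged over the probesets of a gene. The added 16 damps noise where the signal is low, so that fold changes there come out too small. JAG1 had 3 probesets and the other 7 genes had 1 each. A gene entered the tests if it exceeded 7.03 on the log2 scale, the median over all genes and tumors, in at least 3 of the 23 tumors, which left 9972 genes. By this filter 6 of the 8 Notch genes were tested. JAG2 and DLL4 exceeded it in only 2 tumors each and were left out of the counts. NOTCH4 did so in 3 tumors, NOTCH1 in 5, HEY1 in 6, NOTCH3 in 9, JAG1 in 17 and NOTCH2 in 23. Levels were compared for the same gene between tumors and not between genes, since probesets differ in their response.

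The labelled types carried the markers of their tissue. Of the marker genes tested, 12 of 13 melanocyte genes were higher in melanoma, 8 of 8 urothelial genes in TCC, 14 of 17 matrix and fibroblast genes in sarcoma, and 11 of 17 T cell and 9 of 11 B cell genes in lymphoma, each against the mean of the other 3 types. As a mean z-score over the 23 tumors, the HSA was highest for the endothelial list (1.83), the histiocytic sarcoma for the macrophage list (1.97) and the HCC for the hepatocyte list (4.17). The epithelial list stood at 1.04 in the nasal tumor, below the 1.52 to 1.64 of the TCC. The median signal per array was 82.4 to 132.9, 19.8% to 27.2% of the probesets lay below 16, and the log2 ratio of 3' over 5' GAPDH control probesets was 1.28 to 2.14.

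JAG1, which encodes the ligand Jagged-1, was higher in TCC and lower in lymphoma, each against the mean of the other 3 types. The differences of TCC from sarcoma and of lymphoma from melanoma did not pass the test. The 3 TCC had log2 signals of 8.52, 9.66 and 9.57, the highest level of the 4 types with replicates. The 2 STS had 9.70 and 9.79 and the 2 tumors titled Sarcoma had 8.84 and 6.97, so both STS lay above every TCC and the sarcomas spread over nearly the whole range of the 19 tumors. The 5 melanomas had 7.55, 7.07, 6.80, 8.19 and 7.32. The 7 lymphomas ran from 6.82 through a median of 7.17 to 7.82. None of the lymphomas reached the lowest TCC, and neither did any melanoma; 25.2% and 19.5% of all genes tested showed no overlap in these pairs. In a bulk biopsy fewer cells of a type and less RNA per cell cannot be told apart.

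JAG1 averaged 9.25 ± 0.63 (SD, n = 3) in TCC, against 7.83 for the mean of the other 3 types, a log2 difference of 1.42 (standard error 0.43, limma adjusted p = 0.0347). This is 2.67-fold on the scale of signal + 16. It averaged 7.28 ± 0.37 (SD, n = 7) in lymphoma, against 8.48 for the other 3 types (log2 difference -1.20, standard error 0.33, limma adjusted p = 0.00902). In melanoma the mean was 7.38 ± 0.53 (SD, n = 5), against 8.45 (log2 difference -1.07, limma adjusted p = 0.0911), and in sarcoma it was 8.82 ± 1.31 (SD, n = 4), against 7.97 (log2 difference 0.85, limma adjusted p = 0.205). Neither passed the test. The TCC call was lost without TCC 1 or TCC 2 (limma adjusted p = 0.195 and 0.170). The lymphoma call held without any single tumor but was lost with all 23 tumors as 2 groups, lymphoma against the rest (log2 difference -1.0, limma adjusted p = 0.156). It was also lost on size with sarcoma as the 2 tumors titled Sarcoma alone, an alternative added after the values were seen (log2 difference -0.90, limma adjusted p = 0.0276).

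**Figure D1:**
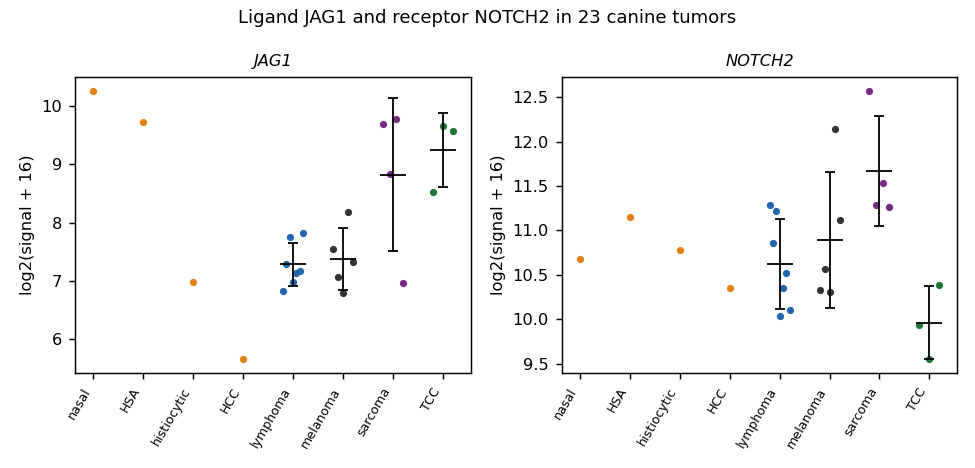
Log2(signal + 16) of JAG1 and NOTCH2 on the vertical axes, by tumor type on the horizontal axis. Points are tumors (orange for the types with 1 tumor), and bars give the mean and SD of the types with at least 3 tumors. JAG1 lies between 8.52 and 9.66 in the TCC and at most at 7.82 in the lymphomas, and the mean of NOTCH2 is highest in the sarcomas and lowest in the TCC.

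In the order of type means JAG1 stood highest in TCC, then sarcoma, melanoma and lymphoma, and no difference between neighbours in that order passed the test. The differences were -0.42 for sarcoma minus TCC, -1.44 for melanoma minus sarcoma and -0.10 for lymphoma minus melanoma (limma adjusted p = 0.687, 0.119 and 0.887). The 3 wider differences passed: JAG1 was lower in lymphoma than in TCC (log2 difference -1.96, limma adjusted p = 0.00536), in lymphoma than in sarcoma (-1.54, adjusted p = 0.0146) and in melanoma than in TCC (-1.86, adjusted p = 0.0210). The lymphoma and TCC pair held under all 28 alternatives in which it was fitted, with a range of -2.33 to -1.67. The difference of melanoma from TCC was lost without Melanoma 2, TCC 1 or TCC 2, and that of lymphoma from sarcoma without either STS (limma adjusted p = 0.0656 and 0.0665). Sarcoma 1, at 6.97, lay among the lymphomas and melanomas. Without it JAG1 was higher in sarcoma (log2 difference 1.47, limma adjusted p = 0.0112) and lower in melanoma (-1.27, adjusted p = 0.00750), and the difference of sarcoma from TCC was 0.19 (adjusted p = 0.833).

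The 3 probesets of JAG1, named here the Cfa probeset and, by the ends of their names, the CfaAffx _at and CfaAffx _s_at probesets, moved together, with Pearson correlations of 0.776 to 0.882 over the 23 tumors. Run one probeset at a time over 18918 probesets, the log2 difference of TCC was 1.58, 1.15 and 1.52 and that of lymphoma was -1.35, -1.17 and -1.09. All 3 passed in lymphoma (limma adjusted p = 0.00446, 0.0406 and 0.0407). In TCC only the Cfa probeset did (adjusted p = 0.0210, 0.200 and 0.0622). The Cfa probeset never fell below a signal of 100, while the CfaAffx _at probeset lay below 100 in 7 tumors and the CfaAffx _s_at probeset in 3.

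**Figure D2:**
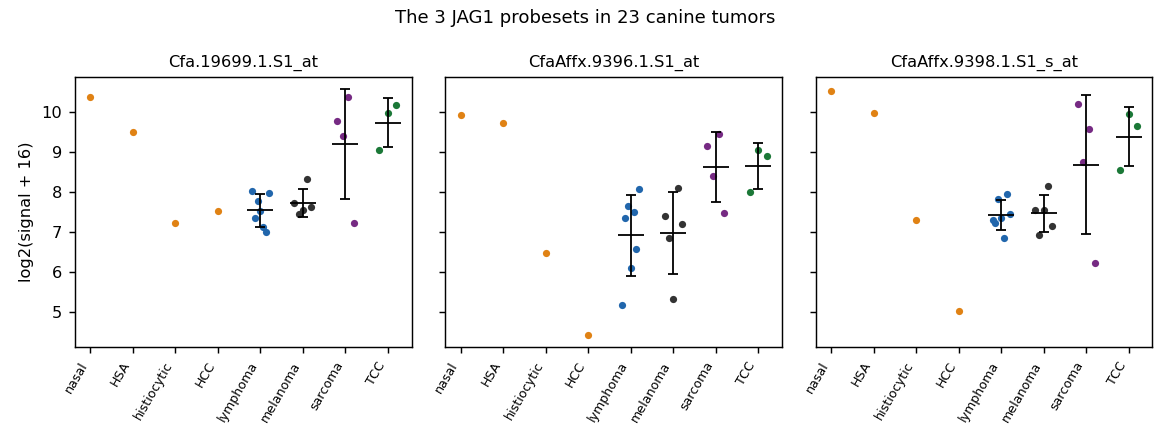
Log2(signal + 16) of the 3 JAG1 probesets on the vertical axis, by tumor type on the horizontal axis, with points as tumors and bars as the mean and SD. The nasal tumor is highest in each panel, while the HCC is lowest on the CfaAffx _at (4.42) and CfaAffx _s_at (5.01) probesets and lies among the lymphomas on the Cfa probeset (7.53).

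Epithelial markers were high in some but not all tumors with high JAG1. Over the 17 epithelial genes on the array, the signals of the TCC summed to 57530 to 62390 and those of the nasal tumor to 35300. No melanoma exceeded 7252, no lymphoma 3482 and no sarcoma 2582, and the lowest sums of these types were 660, 619 and 1090. The HSA, with JAG1 at 9.73, had 1979, and the HCC, with JAG1 at 5.65, had 24180. The JAG1 probesets disagreed on the HCC, with 7.53 on the Cfa, 4.42 on the CfaAffx _at and 5.01 on the CfaAffx _s_at probeset. No marker was listed at 0. Endothelial cells also make JAG1. Over 18 endothelial genes the HSA summed to 36010 and the TCC to 9608 to 9838. Sarcomas had at least 5071 and at most 8837, melanomas 3095 and 8468, and lymphomas 3933 and 9663. The lymphomas overlapped with the TCC through Lymphoma 1 alone, and the next highest lymphoma had 6629. Of the 12 endothelial genes tested, 2 were called higher and 0 lower in TCC, and 0 higher and 2 lower in lymphoma. Of all genes, 6.82% were higher in TCC and 12.1% lower in lymphoma. The part of epithelial or endothelial cells in the difference between types was not tested.

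NOTCH2, a receptor with a broad expression in many cell types, was higher in sarcoma and lower in TCC, each against the mean of the other 3 types. Taken by pairs, the differences of sarcoma from melanoma and of TCC from lymphoma and from melanoma did not pass the test. The 2 STS had log2 signals of 12.58 and 11.54, and the 2 tumors titled Sarcoma had 11.29 and 11.27. The 3 TCC had 9.94, 9.56 and 10.38, all below every sarcoma, as 21.9% of all genes showed no overlap in this pair. The 5 melanomas had 10.33, 10.57, 10.30, 12.14 and 11.12, with Melanoma 3 as the second highest tumor of all, above 3 of the 4 sarcomas. The 7 lymphomas ran from 10.03 through 10.52 to 11.29.

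NOTCH2 averaged 11.67 ± 0.62 (SD, n = 4) in sarcoma, against 10.49 for the mean of the other 3 types, a log2 difference of 1.17 (standard error 0.32, limma adjusted p = 0.0295) or 2.26-fold. In TCC it averaged 9.96 ± 0.41 (SD, n = 3), against 11.06 (log2 difference -1.10, standard error 0.35, limma adjusted p = 0.0440). Melanoma, at 10.89 ± 0.77 (SD, n = 5), and lymphoma, at 10.62 ± 0.51 (SD, n = 7), had log2 differences of 0.14 and -0.22 from the other 3 types (limma adjusted p = 0.843 and 0.564). The sarcoma call was lost without STS 0 (log2 difference 0.87, limma adjusted p = 0.154), without STS 1 (adjusted p = 0.0578) or without TCC 1 (adjusted p = 0.0552). The TCC call was lost without any of 10 of the 19 tumors, with log2 differences of -1.31 to -0.90 and limma adjusted p up to 0.242.

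In the order of type means NOTCH2 stood highest in sarcoma, then melanoma, lymphoma and TCC. As for JAG1, no difference between neighbours passed the test: the log2 differences were -0.77 for melanoma minus sarcoma, -0.27 for lymphoma minus melanoma and 0.67 for lymphoma minus TCC (limma adjusted p = 0.365, 0.601 and 0.238). The difference of sarcoma from TCC was 1.71 (standard error 0.43, limma adjusted p = 0.0140), lost without TCC 0 or TCC 1 (adjusted p = 0.0508 and 0.0822). Lymphoma was lower than sarcoma (log2 difference -1.04, limma adjusted p = 0.0380), a call lost without any of 6 tumors, and melanoma minus TCC, at 0.93, did not pass (adjusted p = 0.169).

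In TCC the calls of JAG1 and NOTCH2 had opposite directions, and both adjusted p lay close to 0.05. The matrix and fibroblast list was raised in sarcoma, as NOTCH2 was. Over its 17 genes the signals of the sarcomas summed to 82760 to 153400. TCC had at least 19570 and at most 40960, melanomas 26050 and 108500, and lymphomas 4323 and 11150. Every TCC exceeded every lymphoma on the matrix list. Mean NOTCH2 was 9.96 in TCC and 10.62 in lymphoma, a difference that did not pass the test (limma adjusted p = 0.238). The part of matrix-producing cells in the difference between types was not tested.

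NOTCH3, the receptor known for vascular smooth muscle and pericytes, did not pass the test among the types, and its spread within sarcoma and lymphoma was wide. The 4 sarcomas had 7.04 and 9.05 (STS) and 7.29 and 5.75 (Sarcoma), and the 3 TCC had 6.96, 7.40 and 7.20. The melanomas ran from 5.26 through 6.38 to 6.78 and the lymphomas from 4.24 through 6.43 to 7.19. The linear signal lay below 100 in 12 tumors and below 16 in 1, Lymphoma 4 (2.85). All 3 TCC lay above all 5 melanomas, as did 19.5% of the genes in this pair in either direction, but the log2 difference of -0.94 for melanoma minus TCC did not pass (limma adjusted p = 0.414). The log2 differences from the other 3 types were 0.73 for sarcoma, 0.60 for TCC, -0.66 for melanoma and -0.67 for lymphoma, with standard errors of 0.42 to 0.56 (limma adjusted p = 0.424, 0.549, 0.475 and 0.235).

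NOTCH1, the receptor of T cell commitment, had a low and even signal. It ran from 30.8 to 176.1 as a linear signal over the 23 tumors, below 100 in 18 of them. The type means were 6.78 ± 0.42 in TCC, 6.68 ± 0.51 in sarcoma, 6.43 ± 0.73 in melanoma and 6.38 ± 0.47 in lymphoma (SD, n = 3, 4, 5 and 7). Melanoma 3 held the highest NOTCH1 value, 7.59, and Melanoma 1 the lowest, 5.55, so the whole range lay within a single type. The log2 differences of the 4 types ran from -0.25 to 0.28, and none passed (limma adjusted p = 0.532 to 0.837).

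NOTCH4, a receptor mostly of endothelial cells, also showed no difference that passed. Its signal ran from 8.07 to 158 and lay below 100 in 17 tumors. The type means were 6.57 ± 0.38 in TCC, 6.24 ± 0.51 in sarcoma, 6.26 ± 0.79 in melanoma and 6.70 ± 0.61 in lymphoma, and the log2 differences from the other 3 types ran from -0.26 to 0.34 (limma adjusted p = 0.419 to 0.844). The HSA, the tumor with the highest endothelial markers, had 6.41, rank 14 of 23.

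JAG2 and DLL4 were dim. JAG2, a second Jagged ligand, had signals of 2.6 to 148 and lay below 16 in 4 tumors. Its log2 values were 7.05, 6.06 and 6.71 in the TCC, 4.22 and 6.21 in the STS, 4.56 and 5.70 in the tumors titled Sarcoma, and 6.16, 6.12, 6.84, 6.71 and 5.99 in the melanomas. The lymphomas ran from 4.43 through 6.15 to 6.90. DLL4, the Delta-like ligand of sprouting vessels, had signals of 1.96 to 135 and lay below 16 in 7 tumors. Its lowest and highest log2 values were 5.25 and 6.69 for TCC, 4.18 and 7.07 for sarcoma, 4.28 and 6.24 for melanoma, and 4.17 and 6.69 for lymphoma, so all 4 types overlapped. In the fit of all 15115 genes, without the filter on low values, neither passed an F test over the 4 types (limma adjusted p = 0.199 for JAG2 and 0.610 for DLL4). The lowest adjusted p of the 4 comparisons was 0.176, for JAG2 in sarcoma at a log2 difference of -1.10.

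HEY1, a repressor gene switched on by Notch, varied between tumors of the same type, and no difference between types passed the test. It ran from 5.0 through 6.52 to 7.80 in the lymphomas and from 4.47 through 6.42 to 6.93 in the melanomas. The 4 sarcomas had 7.04 and 7.54 (STS) and 4.76 and 6.37 (Sarcoma), and the 3 TCC had 6.49, 5.82 and 6.28. Differences between types made up 3.14% of its variance over the 19 tumors, against a median of 36.6% for the 9972 genes. The 4 log2 differences lay between -0.24 and 0.22 (limma adjusted p = 0.732 to 0.909). Its SD over the 23 tumors, 1.03, was above that of 72.0% of the genes. The direction of HEY1 turned with single tumors in each of the 4 types, and the SD within types was 0.95. The HEY1 signal was low, below 100 in 16 tumors and below 16 in 2.

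**Figure D3:**
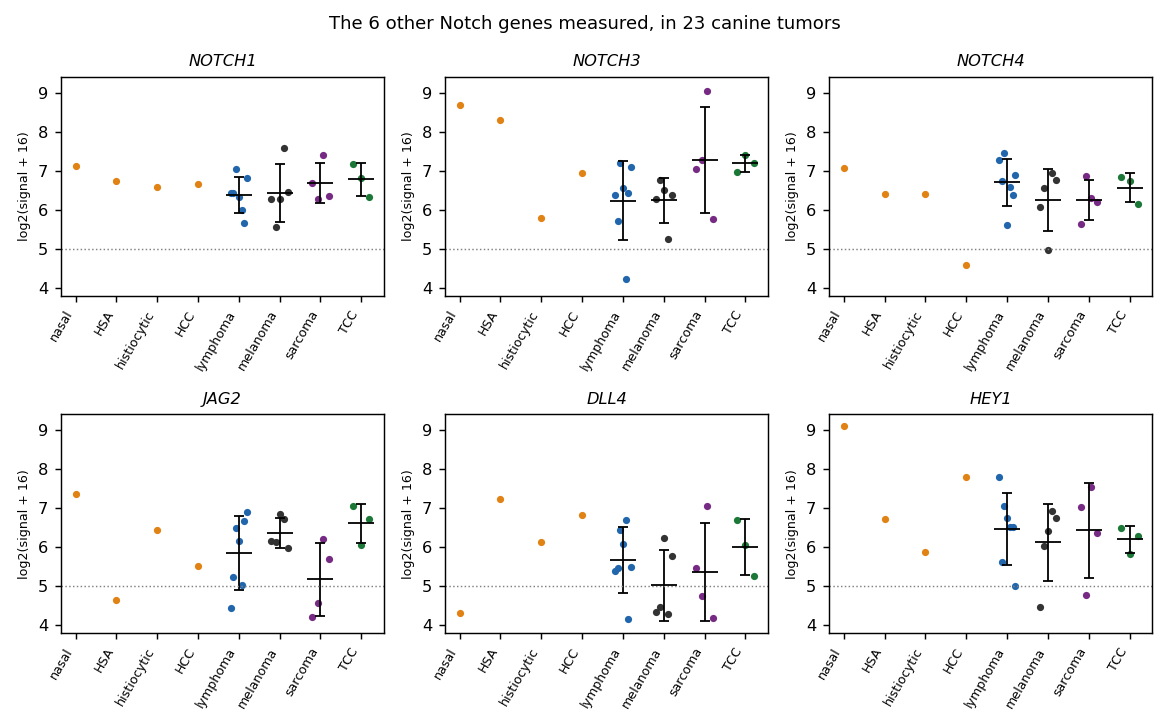
Log2(signal + 16) of NOTCH1, NOTCH3, NOTCH4, JAG2, DLL4 and HEY1 on the vertical axes, by tumor type on the horizontal axis, with points as tumors and bars as the mean and SD of types with at least 3 tumors. The dotted line marks a signal of 16, and the 4 types with replicates overlap in all 6 genes except for NOTCH3, where the 3 TCC lie above the 5 melanomas.

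Counted over the 6 Notch genes tested, a gene was called at a limma adjusted p under 0.05 with a log2 difference of at least 1 in size, two-sided and adjusted over 9972 genes. In lymphoma 0 were higher and 1 was lower (JAG1), where 6.95% of all genes were higher and 12.1% lower. In melanoma 0 were called in either direction, where 2.55% and 1.77% of all genes were. In sarcoma 1 was higher (NOTCH2) and 0 were lower, where 4.33% and 1.71% were. In TCC 1 was higher (JAG1) and 1 lower (NOTCH2), where 6.82% and 4.36% were. At an unadjusted p under 0.05, 1 of the 6 passed in lymphoma and in melanoma (JAG1) and 2 in sarcoma and in TCC (JAG1 and NOTCH2), where 43.6%, 19.9%, 22% and 26.6% of all genes did. In the F test over the 4 types, on the adjusted p alone, JAG1 (adjusted p = 0.00402) and NOTCH2 (adjusted p = 0.0212) passed, 2 of 6, where 35.6% of all genes did.

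Over the 6 pairs of types, 5 of the 36 differences were called, 3 of JAG1 and 2 of NOTCH2. The share of all genes called was 15.4% for lymphoma against melanoma, 1.78% for melanoma against sarcoma, 16.9% for lymphoma against sarcoma, 18.1% for lymphoma against TCC, 9.26% for melanoma against TCC and 9.48% for sarcoma against TCC. In these pairs the tumors did not overlap for JAG1 in lymphoma against TCC (25.2% of all genes), for JAG1 and NOTCH3 in melanoma against TCC (19.5%) and for NOTCH2 in sarcoma against TCC (21.9%). With only 6 genes, these counts are not set apart from the shares over all genes. Differences between types made up 61.9% of the variance of JAG1, 49.8% of NOTCH2, 25.5% of NOTCH3, 12.5% of NOTCH4 and 9.42% of NOTCH1 over the 19 tumors.

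**Figure D4:**
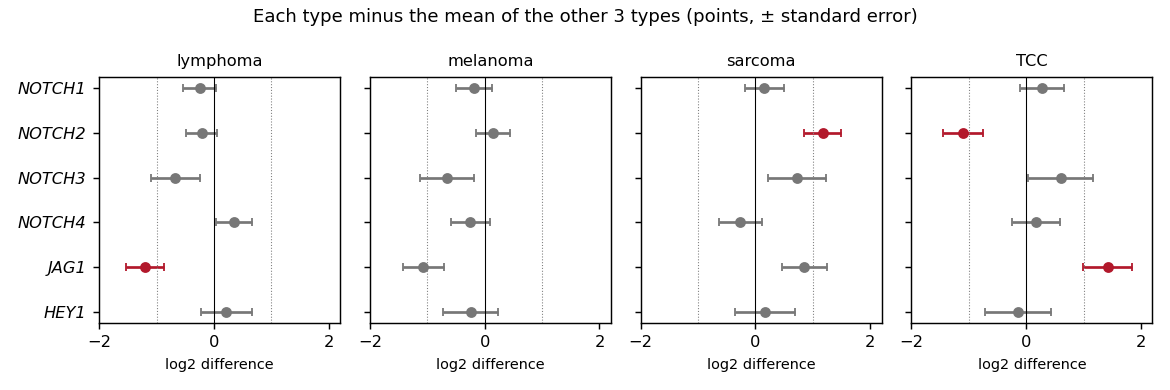
Log2 difference of each type from the mean of the other 3 types on the horizontal axis for the 6 Notch genes tested, with bars as standard errors, red for called genes, and dotted lines at -1 and 1. The calls are JAG1 at -1.20 in lymphoma and 1.42 in TCC, and NOTCH2 at 1.17 in sarcoma and -1.10 in TCC.

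The single tumors carried the most extreme values of several Notch genes. They have no replicate, so their values are given with no test. The nasal tumor had the highest value of all 23 tumors for JAG1 (10.27), JAG2 (7.36) and HEY1 (9.10), the second highest for NOTCH3 (8.69) and the third highest for NOTCH4 (7.06). HEY1 in it lay 2.71 log2 units above the mean of the other 22 tumors, and the next highest tumor was the HCC at 7.81. DLL4, at 4.31, was among its low values, rank 20 of 23, and NOTCH2, at 10.68, was rank 12. High values in it were therefore not shared by every receptor and ligand.

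The HSA had the highest DLL4 value, 7.24, and the third highest for JAG1 (9.73) and NOTCH3 (8.31). These are genes known from vessels, but NOTCH4 and HEY1, known from vessels as well, were at ranks 14 and 10, with 6.41 and 6.72. The HSA also had the highest summed signal of the 17 smooth muscle and pericyte genes, 27380, against 2564 to 14070 in the 19 tumors of the 4 types. JAG2 was low in it, at 4.64.

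The HCC had the lowest value of all 23 tumors for JAG1, 5.65, and for NOTCH4, 4.59, with differences of -2.43 and -1.90 from the mean of the other 22 tumors. The JAG1 value was the lowest on both CfaAffx probesets but rank 16 of 23 on the Cfa probeset, so the 3 probesets disagree on this tumor. HEY1 (7.81) was the second highest of the 23 and DLL4 (6.82) the third. The histiocytic sarcoma lay at rank 8 to 19 for all 8 genes, with differences of -1.01 for NOTCH3 (5.78) and -1.04 for JAG1 (6.99) from the mean of the other 22 tumors.

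Whether a Notch gene followed a marker list between tumors of the same type was asked by adding a marker score to the fit. The score was the mean z-score of a marker list over the 19 tumors, and the slope gives log2 units per unit of score. The lymphomas split on the T cell score, at 1.01 to 1.83 in Lymphoma 3 to Lymphoma 6 and at -0.22 to -0.08 in Lymphoma 0 to Lymphoma 2, and ran from -0.27 to 1.77 on the B cell score. In lymphoma these scores cannot tell markers of the tumor cells from those of other lymphocytes. None of the 6 genes passed for the endothelial score (12 genes; the lowest adjusted p of the 6 was 0.641), the smooth muscle and pericyte score (15 genes; 0.842), the T cell score (17 genes; 0.273) or the B cell score (11 genes; 0.591). Of all genes, 0.00% passed for the endothelial and the smooth muscle and pericyte scores, 0.562% for the T cell score and 1.52% for the B cell score. All genes here include the marker genes of each score. The endothelial and the smooth muscle and pericyte fits called none of these either, so they cannot decide whether a Notch gene followed those lists. At an unadjusted p under 0.05, 0, 0, 1 and 0 of the 6 genes and 8.25%, 6.16%, 11.1% and 12.0% of all genes passed.

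The 1 gene was NOTCH2, whose slope on the T cell score was -0.54 (standard error 0.19, limma adjusted p = 0.273). NOTCH3 had slopes of 0.06 on the smooth muscle and pericyte score and 0.27 on the endothelial score, with standard errors of 0.47 and 0.47, and NOTCH4 had 0.23 on the endothelial score with a standard error of 0.34. Scores for matrix and fibroblast, epithelial and macrophage genes, added after the values were seen, gave no Notch gene that passed (lowest adjusted p of the 6 genes 0.514, 0.972 and 0.390), where 0.120%, 0.00% and 0.261% of all genes did. The epithelial fit called no gene at all, so it cannot decide the question. At an unadjusted p under 0.05, 2, 1 and 2 of the 6 genes passed for the matrix and fibroblast, epithelial and macrophage scores, where 7.43%, 4.85% and 9.92% of all genes did. On the matrix and fibroblast score NOTCH2 had a slope of 0.99 and JAG1 of 1.11 (limma adjusted p = 0.514 and 0.610). On the macrophage score JAG1 had -0.61 and NOTCH3 -0.71 (adjusted p = 0.390 and 0.485), and on the epithelial score HEY1 had -2.32 (adjusted p = 0.972).

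The other genes of the pathway were read from 7 lists of 81 genes, of which 69 were on the array and 47 were tested. In lymphoma 5 of the 47 were higher and 6 lower, where 6.95% and 12.1% of all genes were. Of the 5, MFNG passed the filter on low values through 3 lymphomas alone. In melanoma 1 was higher and 2 lower, where 2.55% and 1.77% of all genes were. The counts were 1 and 1 in sarcoma (4.33% and 1.71%) and 2 and 1 in TCC (6.82% and 4.36%). The median log2 difference of the 47 was 0.01 for lymphoma (all genes 0.07), 0.05 for melanoma (-0.05), 0.14 for sarcoma (-0.04) and -0.25 for TCC (-0.08).

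None of the 6 receptor cleavage genes, which include ADAM10 and the gamma-secretase subunits PSEN2, NCSTN, APH1A, APH1B and PSENEN, was called in any of the 4 comparisons. The same was true of the 5 genes of the nuclear complex (RBPJ, SNW1, MAML2, KAT2B and CREBBP). Of all genes, 6.95% and 12.1% were called higher and lower in lymphoma and at most 6.82% in 1 direction in the other comparisons, so with 11 genes a count of 0 is not set apart. In lymphoma NCSTN and APH1A had log2 differences of -0.77 and -0.72 that passed on the adjusted p (0.0310 and 0.0184, limma) but not on size. In the F test, on the adjusted p alone, 2 of the 6 cleavage genes and 0 of the 5 nuclear genes passed, where 35.6% of all genes did.

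In lymphoma MFNG, a Fringe enzyme that adds sugar to Notch receptors, had a log2 difference of 1.77 (limma adjusted p = 0.00396). It passed the filter on low values through 3 lymphomas alone, so its place in the test followed from the group where it is high. It was tested in 25 of 29 alternatives, and not with a pseudocount of 64, quantile normalization or median centring. Among the other genes called in lymphoma, FBXW7, which marks the active receptor for destruction, was higher by 1.16, DTX3L, a Deltex-family ubiquitin ligase, by 1.26 and HDAC1, a histone deacetylase of many corepressor complexes, by 1.05. The FBXW7 difference was 0.96 without Lymphoma 6, and that of HDAC1 was below 1 without any of 4 tumors. BEND6, an RBPJ-binding inhibitor, had -1.63, a call lost without any of 10 tumors (limma adjusted p up to 0.102). MFAP5, a microfibril protein that can bind Jagged-1, was lower (log2 difference -2.78, limma adjusted p = 0.00378). The MFAP5 call was lost with all 23 tumors as 2 groups (log2 difference -2.28, limma adjusted p = 0.0665). Its values were 5.17 in the HCC, 5.39 in the nasal tumor, 5.41 in the HSA and 11.28 in the histiocytic sarcoma, and 5.35 to 8.27 in the lymphomas. DTX4, another Deltex ligase, was higher in TCC by 1.83 (limma adjusted p = 0.0347) and had -1.69 in melanoma. Both DTX4 calls were lost with single tumors left out: the TCC call without TCC 1 or TCC 2, and the melanoma call without any of 10 tumors.

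Among 12 other Notch targets tested, SNAI2, a repressor of epithelial genes that is also a neural crest factor, was lower in lymphoma (log2 difference -2.66) and higher in melanoma (2.57; limma adjusted p = 4.08e-05 and 0.000868). Also lower in lymphoma were the cyclin gene CCND1 (-2.04), the cell cycle inhibitor CDKN1A (-1.45) and the guidance receptor NRP1 (-1.38). MYC, the 1 target higher there, had 1.44 (limma adjusted p = 0.00842); NRP1 and MYC in lymphoma are named after their values were seen. NRP1 was higher in sarcoma by 1.21, a call lost without any of 4 tumors. GATA3, a factor of T cells and of the urothelium, was higher in TCC by 5.16 (limma adjusted p = 0.00331) and had -3.34 in melanoma and -3.37 in sarcoma, calls that were lost without any of 8 and 11 tumors. A high GATA3 level was not particular to TCC: the lymphomas ran from 6.91 to 12.74 and the TCC from 12.02 to 12.75. BCL2, the survival gene, was lower in TCC (log2 difference -1.30, limma adjusted p = 0.0136), a call lost without TCC 1. HEYL, the 1 other HEY gene tested, was not called in any comparison. Other signals than Notch act on these genes, and their values do not measure Notch activity.

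The genes most like each Notch gene were taken by Pearson correlation of log2 values over the 23 tumors, as a description with no test. The points share tumor type, and each partner was picked as the highest of 9672 genes. For NOTCH2 they were DOCK6, a nucleotide exchange factor (r = 0.831, Spearman's rho 0.716), PI16, a protease inhibitor of fibroblasts (r = 0.793), and FBN1, the microfibril protein fibrillin-1 (r = 0.788). With the type means taken out, the correlations of these 3 with NOTCH2 were 0.838, 0.830 and 0.721 over the 19 tumors. For JAG1 they were UXS1, which makes UDP-xylose (r = 0.834, rho 0.701), LAMB1, a laminin chain (r = 0.785), and EPHA4, an ephrin receptor (r = 0.767). With the type means taken out, these fell to 0.412, 0.465 and 0.455.

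For NOTCH1 the nearest gene was NEK4 (r = 0.776), for NOTCH4 CCNG1 (r = 0.781), for NOTCH3 PAX6 (r = 0.682) and for HEY1 CCDC51 (r = 0.672). Spearman's rho was 0.751, 0.586, 0.450 and 0.477 for these 4. Of the 15 pairs among the 6 Notch genes, JAG1 with NOTCH3 had the highest correlation over the 23 tumors, 0.659, and 0.440 with type means taken out. The highest with type means taken out was NOTCH2 with HEY1, 0.559, against 0.270 over the 23 tumors.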

How the data were processed

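The authors scaled each Canine Genome 2.0 array with MAS5 in Affymetrix Expression Console and deposited a linear intensity for each of 43035 probesets. RNA had been amplified before labelling. Of the probesets, 175 were controls, 29254 carried 1 gene symbol in the platform annotation, 439 several and 13167 none, and only those with 1 symbol were used. Intensities were taken as log2(signal + 16) and averaged per gene. limma 3.58.1 (R 4.3.3, eBayes with a variance trend) was fitted to 19 tumors of 4 types over 9972 genes, with each type set against the unweighted mean of the other 3, each pair of types, an F test, and fits of type with a marker score. P-values were two-sided and adjusted by Benjamini-Hochberg over all genes tested. The script was tested on simulated data. The number of arrays limits the precision.

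The genes and lists were chosen with earlier results of these data known. Named were every Notch gene measured, up to 3 called genes with the largest change per pathway list and comparison, and the 3 genes most correlated with each Notch gene tested. Alternatives covered the pseudocount, scaling, filter, probeset choice, variance trend, replicate block, call rule and tumors left out. The numbers in the sample titles were not taken to pair tumors of different types, since each array came from another dog. The correlations of deviations over 23 same-numbered pairs ran from -0.122 to 0.0881.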

Additional observations from a re-analysis of the deposited data

How the results depend on the processing

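The counts of Notch genes rest on few tumors. Leaving out each of the 19 tumors in turn gave 0 to 1 Notch genes called in melanoma, 0 to 2 in sarcoma, 0 to 2 in TCC, 1 to 2 in the F test and 3 to 6 over the pairs, with 1 to 3 pathway genes in melanoma, 0 to 3 in sarcoma, and 661 to 1171 genes in TCC. The count in lymphoma stayed at 1. With a replicate block made from the title numbers, 0 Notch genes were called in sarcoma, 0 in TCC, 1 in the F test and 2 over the pairs. Each array came from another dog, and these numbers were not taken to pair tumors. Without the filter, without the variance trend or with median centring, 1 was called in TCC. Pathway genes in sarcoma numbered 1 without the filter or the trend and 4 with median centring, and in melanoma 1 with a pseudocount of 1. On the adjusted p alone, 3291 genes passed in lymphoma against 1898 with the fold change, with 5 pathway genes in melanoma and 6 in sarcoma. With all 23 tumors as 2 groups, 0 Notch genes were called in lymphoma, sarcoma and TCC, 133, 99 and 489 genes in melanoma, sarcoma and TCC (431, 603 and 1115 otherwise), and 1 and 0 pathway genes in melanoma and sarcoma. With sarcoma as the 2 STS alone, 2 Notch genes and 5 pathway genes were called in sarcoma. Over all genes tested, no alternative called more than 786 in sarcoma, against 603 in the main fit. With the 2 tumors titled Sarcoma alone, an alternative added after the values were seen, 0 Notch genes and 0 pathway genes were called, and 196 of all genes. The cause was not tested.

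Directions turned only for differences that had not passed. Median centring gave -0.013 for NOTCH1 and -0.0025 for HEY1 in sarcoma; it moved the median of all genes by -0.172 in sarcoma and 0.129 in TCC, and the share of higher genes among those called to 48.2% in sarcoma, against 71.6% with MAS5 scaling (TCC 70.7%, against 61%). With all 23 tumors HEY1 was -0.059 in lymphoma and -0.10 in sarcoma. With the STS alone JAG1 in sarcoma minus TCC was 0.49. With the tumors titled Sarcoma alone the sarcoma values were -0.21 for NOTCH1, -0.033 for NOTCH3, 0.021 for NOTCH4, -0.067 for JAG1 and -0.70 for HEY1. Over single tumors left out, HEY1 ran from -0.0037 to 0.46 in lymphoma, -0.45 to 0.17 in melanoma, -0.21 to 0.72 in sarcoma and -0.33 to 0.046 in TCC. NOTCH1 ran from -0.47 to 0.036 in melanoma and -0.086 to 0.29 in sarcoma, NOTCH4 from -0.42 to 0.073 in melanoma, and NOTCH2 from -0.17 to 0.29 in melanoma and -0.42 to 0.043 in lymphoma minus melanoma. JAG1 ran from -0.25 to 0.10 in lymphoma minus melanoma and -0.79 to 0.19 in sarcoma minus TCC. Low signals of JAG2, DLL4, NOTCH1, NOTCH4 and HEY1, and of NOTCH3 in some tumors, limit what these arrays can show for them.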
